A study of Rattus norvegicus with 32 samples.

Results

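The genes described here are 40 genes of the extracellular matrix and of hepatic stellate cells: collagens, the proteoglycans and glycoproteins bound to them, elastic fibre proteins and their cross-linking enzymes, matrix proteases with their inhibitors, and receptors and cytoskeletal proteins of matrix-producing cells. They were chosen by name, with earlier results of these data known, and the table of gene counts held 36 of the 40 among its 17327 genes. Of these 36, 34 had enough reads to be tested, among 11002 genes tested in all. Col4a2, Col6a1, Col6a3 and Nid1 were not analysed here. Col1a2 and Mfap4 stood at 0 reads in all 32 libraries, where 3 reads came to at most 0.247 CPM (reads of a gene scaled by library size). They were among 2985 genes at 0 reads in every library, while Col1a1 reached 152 CPM. Whether these zeros came from absent transcripts or from the annotation or counting was not tested. They are therefore not read as a lack of expression. The study sequenced messenger RNA of whole livers from Charles River Sprague Dawley rats under basal conditions, to examine what corticosteroid-binding globulin (CBG), the plasma carrier of glucocorticoids encoded by Serpina6, does there. The 8 groups of 4 libraries came from wild-type (WT, Cbg+/+) and knockout (KO, Cbg-/-) females and males at 30 days and at 60 days of age. The knockout was made by CRISPR/Cas9, and the KO and WT rats carry no other stated allele or treatment.

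Hepatic stellate cells lie between the sinusoidal endothelium and the hepatocytes, store retinyl esters and, with portal fibroblasts, make most of the matrix of the liver. When activated in injury they turn into contractile myofibroblasts that secrete fibrillar collagen, a process driven by TGF-beta and PDGF signalling. Matrix is also laid down while the organ grows, and glucocorticoids are known to lower collagen synthesis in fibroblasts.

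Serpina6 itself was lower in every KO library than in every WT library of the same sex and age. Its level was 43.7 to 79.5 CPM in 30-day KO females against 517 to 860.1 in WT, and 88.2 to 131 against 835 to 1358 at 60 days. Libraries held 12951969 to 21954929 reads on genes, those at 60 days at most 17133332 and those at 30 days at least 16806943. Age cannot be told apart from the form of the sample titles, which also differed between the ages. The tissue label was checked on 8 hepatocyte markers, which summed to 206661 to 294892 CPM. One library stood apart, since in replicate 1 among the KO females of 60 days retinal transcripts were found, so the called genes of that group are given with and without it. There 14 genes of the retina summed to 2137 CPM, against a median of 9.04 in its group and at most 9.83 in the libraries of the other groups. CPM here is scaled between libraries, and a gene was called when the adjusted p of edgeR's quasi-likelihood test was under 0.05.

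These genes were called most often between the ages, and the called genes were lower at 60 than at 30 days, except Thbs1 in KO females. Col1a1, Col3a1, Col5a1, Col5a2, Col4a1, Col6a2 and Eln fell in both sexes and both genotypes. In WT females 30 of 34 genes fell and none rose, against 17.1% of all genes tested that fell. In KO females 16 fell and 1 rose, with and without the library with retinal transcripts, against 12.1% and 10.6% of all genes. In WT males 26 fell and none rose, against 15.8% of all genes that fell, and in KO males 21 fell and none rose, against 14.5%. The median log2 fold change of the 34 genes was -1.56 in WT females, -0.50 in KO females, -0.99 in WT males and -0.81 in KO males, while that of all genes tested lay between -0.01 and 0.01 in each. In all 4 comparisons 16 genes fell (15 without that library, where Pdgfra was not called in KO females), 29 had a negative fold change in each, and 2 (Timp3 and Mmp14) were called in none.

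All 15 genes of a list of proliferation markers also fell with age in each of the 4 comparisons, and their part in the result was not tested. Their summed level was 207 to 449 CPM in 30-day WT females and 19.6 to 34.4 at 60 days. Of 13 endothelial markers, 6 fell in WT females, 2 in KO females, 5 in WT males and 1 in KO males, and none rose; both calls in KO females (Stab2 and Vwf) were lost without the library with retinal transcripts (edgeR adjusted p = 0.0515 and 0.0731). In whole liver, fewer matrix-producing cells and less of these transcripts per cell cannot be told apart.

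**Figure D1:**
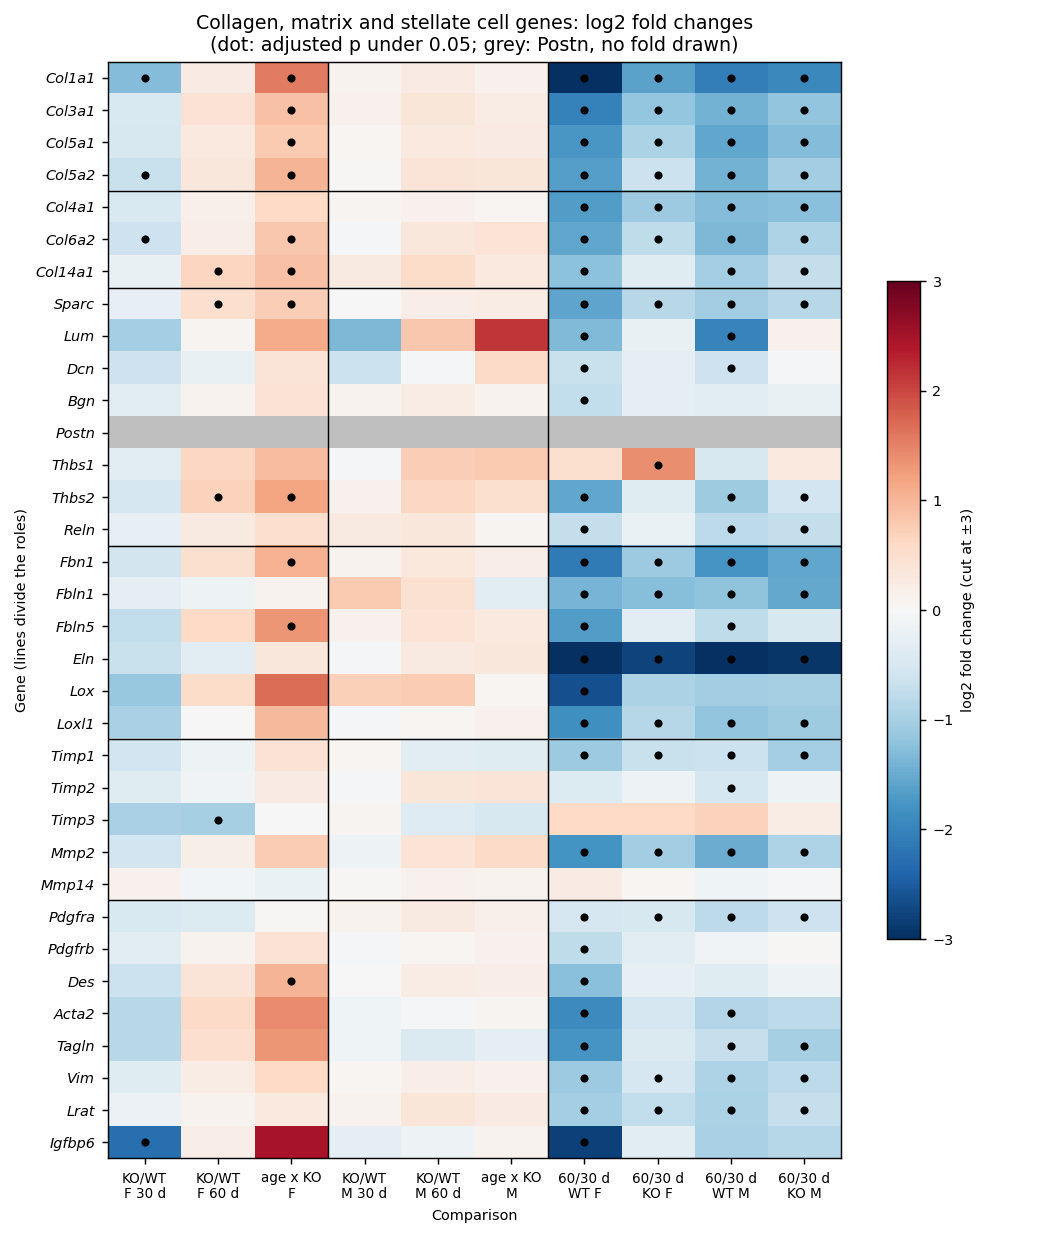
Log2 fold changes of the 34 tested genes (rows, with lines between the roles) in 10 comparisons (columns), blue lower and red higher, with a dot where the adjusted p of edgeR was under 0.05. The first column (KO against WT females at 30 days) is blue in all but 1 of the genes drawn, and most genes are blue in all 4 age columns; Postn is grey because no fold is drawn for it.

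Between genotypes, few of these genes were called. At 30 days 4 of 34 genes fell in KO females (Col1a1, Col5a2, Col6a2 and Igfbp6) and none rose, against 0.182% of all genes that fell and 0.3% that were called either way. The fold change was negative for 33 of 34, with a median of -0.56 against 0.01 over all genes, and 27 of 34 (79.4%) had an unadjusted p under 0.05, as did 10.7% of all genes. In 15 genes all 4 KO animals lay below all 4 WT animals, against 3.92% of all genes. The number called depended on single libraries: it was 0 without WT replicate 1 or 2 or KO replicate 1, 2 or 4, and 1 (Col1a1) without KO replicate 3. It was 9 with DESeq2, 0 with limma on the deposited log2 values, and 1 (Col5a2) with the number in the sample titles as a covariate, a number that was 2 in all KO females and in 1 of 4 WT females.

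At 60 days 3 of 34 genes rose in KO females (Sparc, Col14a1 and Thbs2) and 1 fell (Timp3). That is 11.8% of the 34, where 6.77% of all genes were called, 3.48% higher and 3.29% lower, a share near that background. In 5 genes (Col5a1, Col14a1, Sparc, Thbs2 and Fbn1) all KO animals lay above all WT animals, against 4.48% of all genes. The median log2 fold change was 0.22, and 26 of 34 were positive. Without KO replicate 1, the library with retinal transcripts, 2 were called (Sparc and Col14a1). The same 2 were called without WT replicate 2, and Sparc alone without WT replicate 4 or when the 16 libraries of 60 days were fitted alone.

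Whether the genotype difference in females changed between the ages was tested as an interaction. For 11 of 34 genes KO minus WT was higher at 60 days than at 30 days (Sparc, Col5a2, Fbn1, Thbs2, Col5a1, Fbln5, Col6a2, Col14a1, Col1a1, Col3a1 and Des), and for none was it lower. Of all genes 1.42% were called higher and 1.55% lower. The interaction was positive for 32 of 34, with a median of 0.80 on the log2 scale, so the change with age was less negative in KO than in WT females for those 32. Thbs2, Sparc, Col5a1, Fbn1, Fbln5 and Col5a2 were called in all 5 alternative fits and in all 16 fits that left out 1 female library. The number in the 30-day sample titles was not a covariate in any of these fits, so its part in the interaction was not tested. The count was 6 without replicate 1 of the 30-day WT or replicate 4 of the 60-day WT females, 7 without replicate 2 of the 30-day WT or replicate 1 of the 30-day KO females, and 8 without replicate 1 of the 60-day KO females.

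**Figure D2:**
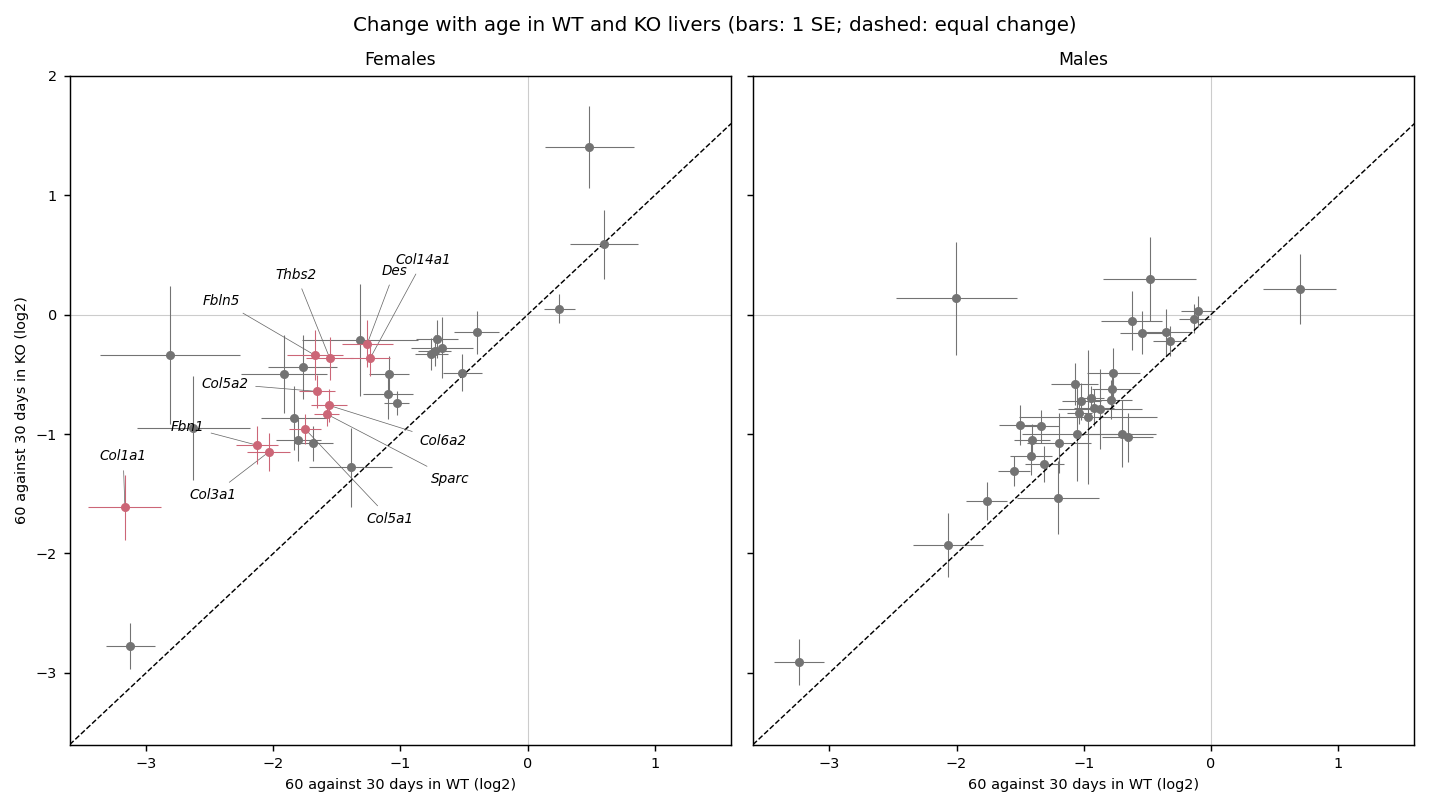
Log2 fold change of 60 against 30 days in WT livers (x axis) and KO livers (y axis) for 33 genes, females left and males right, with bars of 1 SE; red and named are the 11 genes called in the female interaction. In females nearly all points lie above the dashed line of equal change (Col1a1 at -3.17 in WT and -1.61 in KO), and in males they lie nearer to it (Col1a1 at -2.07 and -1.93). Postn is not drawn, since 2 groups stood at 0 reads.

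In males none of the 34 genes was called between genotypes by edgeR. At 30 days 0.0545% of all genes were called, DESeq2 and limma also called 0 of the 34, and 3 of 34 (8.82%) had an unadjusted p under 0.05, as did 5.94% of all genes. At 60 days 0.209% of all genes were called, and 10 of 34 (29.4%) had an unadjusted p under 0.05, as did 10.8% of all genes. Their fold change was positive for 28 of 34, with a median of 0.28. DESeq2 called 1 there (Col14a1) and limma 0, and edgeR called Col14a1 without WT replicate 4. The male interaction of age and genotype called none of the 34 by edgeR, DESeq2 or limma, and edgeR called 0.00909% of all genes. Its unadjusted p was under 0.05 for 2 of 34 (5.88%) and for 5.34% of all genes.

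Whether the sexes differed in their response was tested as well. The sex by genotype term at 30 days called none of the 34 by edgeR, DESeq2 or limma, and edgeR called 0% of all genes. Its unadjusted p was under 0.05 for 23 of 34 (67.6%) and for 5.51% of all genes, and 31 of 34 were positive, with a median of 0.57. The same term at 60 days called none by any of the 3 tools, and edgeR called 0.136% of all genes. Here 4 of 34 (11.8%) and 10.6% of all genes had an unadjusted p under 0.05. The 3-way term of sex, age and genotype, added after the data were seen, called none of the 34 (lowest adjusted p of 0.41 by edgeR) and 2 of all 11002 genes, while 10 of 34 and 7.32% of all genes had an unadjusted p under 0.05. A difference between the sexes in the response to CBG loss was thus not shown for these genes.

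Markers of other cell types differed in direction in the 30-day KO females, and none of them was called. All 7 tested mesothelial markers had negative fold changes, none called, and the 8 in the table summed to 252 to 397 CPM in WT and 212 to 257 in KO. That list also names the keratins Krt7, Krt8 and Krt19, of which Krt7 and Krt19 are in the cholangiocyte list too. Most of the sum came from genes other than Msln, so it is not a measure of mesothelium alone. Msln, which defines the mesothelium of the liver capsule, stood at 28, 32.5, 10.1 and 8.40 CPM in WT replicates 1 to 4 and at 4.99, 2.92, 8.87 and 7.65 in KO. Smooth muscle markers (11 genes, among them the members Des, Acta2 and Tagln) summed to 58.7 to 97.6 CPM in WT and 53.2 to 60.6 in KO, with 7 of 8 tested negative and none called. The exception was Myh11, at 4.78, 3.40, 7.21 and 4.46 CPM in WT and 6.55, 5.61, 6.91 and 5.66 in KO. All 15 proliferation markers were negative, none called, at 207 to 449 CPM in WT against 121 to 279 in KO, and at 60 days all 15 were positive with 1 called (Bub1b), which was lost without the library with retinal transcripts (edgeR adjusted p = 0.284). No marker of these 3 lists stood at 0 reads in a whole group.

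Hepatocyte markers were negative in 7 of 8 and summed to 246238 to 268538 CPM in 30-day WT and 212937 to 244925 in KO females, without overlap. Cholangiocyte markers went the other way, positive in 6 of 7, at 45.1 to 51.9 CPM in WT and 52.8 to 59.9 in KO, also without overlap. The exception was Krt19, which is in the mesothelial list as well. It stood at 9.81, 13.3, 6.10 and 5.46 CPM in WT and 4.10, 4.79, 5.59 and 4.64 in KO. Kupffer cell and macrophage markers were positive in 10 of 11, at 596 to 864 and 771 to 972 CPM, and endothelial markers in 6 of 13, at 566 to 693 and 511 to 656 CPM, both overlapping. In 60-day KO females Smtn (of 8 smooth muscle markers), Gpm6a (of 7 mesothelial) and Epcam (of 7 cholangiocyte) rose. Of all genes 3.48% rose there, and Fgb, a hepatocyte marker, fell. Gpm6a and Fgb were lost without the library with retinal transcripts (edgeR adjusted p = 0.0779 and 0.119). Of these lists the female interaction called Smtn and Gpm6a with and without that library, and Des and Bub1b only with it. It called 1.42% of all genes higher. The part of any of these lists in the results was not tested.

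Of the 8 genes called between genotypes, 4 have a promoter in the RefSeq table used here (assembly GRCr8). These start regions are shown because the genes were called in KO against WT females: Col5a2 and Igfbp6, lower at 30 days, and Sparc and Timp3, higher and lower at 60 days. Of these calls only that of Sparc was kept in every fit that left out 1 library. Each runs 300 bases, from 250 before to 50 after the start, 5′ to 3′ on the gene's strand. Capitals mark letters of any of 7 motifs searched on both strands: the GC box GGGCGG, the CCAAT box CCAAT, the TATA box TATAAA, the SMAD box CAGACA, the AP-1 site TGANTCA, the glucocorticoid receptor half-site TGTTCT and the CArG box.
Col5a2: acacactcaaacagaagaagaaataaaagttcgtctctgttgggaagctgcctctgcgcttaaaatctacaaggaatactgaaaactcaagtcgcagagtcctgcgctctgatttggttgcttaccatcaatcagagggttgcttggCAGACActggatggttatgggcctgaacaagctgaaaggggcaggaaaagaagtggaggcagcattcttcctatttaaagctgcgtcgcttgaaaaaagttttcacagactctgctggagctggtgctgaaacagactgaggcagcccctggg
Igfbp6: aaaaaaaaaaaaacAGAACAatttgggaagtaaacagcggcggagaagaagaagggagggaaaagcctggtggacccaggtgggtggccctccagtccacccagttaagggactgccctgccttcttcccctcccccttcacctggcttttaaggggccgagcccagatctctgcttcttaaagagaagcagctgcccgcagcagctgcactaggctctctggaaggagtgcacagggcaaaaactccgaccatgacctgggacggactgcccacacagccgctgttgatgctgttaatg
Sparc: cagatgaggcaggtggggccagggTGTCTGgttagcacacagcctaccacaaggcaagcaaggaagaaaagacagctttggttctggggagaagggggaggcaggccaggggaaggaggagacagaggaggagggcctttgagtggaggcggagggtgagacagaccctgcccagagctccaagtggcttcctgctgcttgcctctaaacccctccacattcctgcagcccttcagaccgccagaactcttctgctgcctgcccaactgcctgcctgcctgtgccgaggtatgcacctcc
Timp3: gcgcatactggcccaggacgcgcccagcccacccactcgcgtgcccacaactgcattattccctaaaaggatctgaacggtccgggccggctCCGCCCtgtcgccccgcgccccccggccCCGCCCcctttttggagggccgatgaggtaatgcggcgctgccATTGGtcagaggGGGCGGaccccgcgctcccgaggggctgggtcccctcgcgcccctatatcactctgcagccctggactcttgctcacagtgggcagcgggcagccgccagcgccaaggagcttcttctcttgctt
The windows are chr9:55090102-55090401 (minus strand), chr7:135154669-135154968 (plus), chr10:40038767-40039066 (minus) and chr7:19459509-19459808 (minus). Col5a2 and Sparc each hold 1 SMAD box, Igfbp6 holds 1 glucocorticoid receptor half-site, and Timp3 holds 3 GC boxes and 1 CCAAT box, and none of these overlap.

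Of the 34 tested genes 20 matched a promoter, and 27457 promoters were searched in all. Shares are given over all promoters and then over those of the 11683 genes in the count table. A SMAD box was in 5 of the 20 (25.0%; Acta2, Col5a2, Fbn1, Loxl1 and Sparc), against 20.8% and 17.9%. The glucocorticoid receptor half-site was in 5 (25.0%; Col5a1, Igfbp6, Lrat, Lum and Postn), against 20.1% and 14.4%. A GC box was in 11 (55.0%), against 34.9% and 53.9%. The CCAAT box was in 8 of the 20, against 37.7% and 37.4%, and the TATA box in 2 (10.0%; Postn and Vim), against 14.3% and 9.77%. The AP-1 site was in 1 (5.0%; Pdgfra), against 7.33% and 5.9%, and the letters of the CArG box were in none, against 1.64% and 1.3%. Col1a1, Col3a1, Col6a2, Col14a1, Dcn, Bgn, Thbs2, Fbln1, Eln, Lox, Mmp2, Mmp14, Pdgfrb and Tagln had no match.

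Among the fibrillar collagens, Col1a1 encodes the alpha 1 chain of type I collagen, the main collagen of scar and of the portal tract. In females at 30 days it stood at 152, 114, 67.5 and 98.5 CPM in WT and 38.2, 39.2, 50.8 and 47.3 in KO, and every KO value lay below every WT value. It fell in KO (log2 fold change -1.30 ± 0.26 (SE), edgeR adjusted p = 0.0260). At 60 days it stood at 9.92, 15.7, 14.1 and 8.22 CPM in WT and 14.6, 15.5, 13.8 and 13.4 in KO, and the groups overlapped (log2 fold change 0.25 ± 0.29 (SE), edgeR adjusted p = 0.676). WT females thus lost more of it with age (-3.17 ± 0.29 on the log2 scale) than KO females (-1.61 ± 0.27), and the interaction was 1.55 ± 0.39 (edgeR adjusted p = 0.0265). The 30-day call was lost without WT replicate 1 or 2 or KO replicate 1, 2 or 4 (adjusted p 0.0765 to 0.135). The interaction was lost without replicate 1 or 2 of the 30-day WT, replicate 1 of the 30-day KO, replicate 4 of the 60-day WT or replicate 1 of the 60-day KO females (0.0509 to 0.0668).

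In males at 30 days Col1a1 stood at 66.1, 100.1, 51.0 and 79.6 CPM in WT and 77.5, 52.6, 66.4 and 125 in KO, widely overlapping. Males of 60 days stood at 16.2, 18.9, 10.7 and 25.4 in WT and 19.3, 24.5, 21 and 19.5 in KO. It fell with age in both (log2 -2.07 ± 0.27 in WT and -1.93 ± 0.27 in KO), and all 60-day values lay below all 30-day values.

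Col3a1 encodes type III collagen, which forms the reticulin fibres of the liver. At 30 days it stood at 1089, 1085, 821 and 953 CPM in WT and 663, 734, 796 and 692 in KO females, without overlap, but the difference was not called (log2 fold change -0.45 ± 0.16 (SE), edgeR adjusted p = 0.267). Its 60-day levels were 233, 233, 314 and 181 in WT and 327, 313, 333 and 326 in KO, with KO above 3 of the 4 WT libraries (log2 fold change 0.43 ± 0.16 (SE), edgeR adjusted p = 0.104). Only the interaction was called (log2 fold change 0.89 ± 0.23 (SE), edgeR adjusted p = 0.0274), and it was lost in 7 of 16 fits without 1 library (adjusted p 0.0524 to 0.0663): those without replicate 1 or 2 of the 30-day WT, 1 or 4 of the 30-day KO, 2 or 4 of the 60-day WT or 1 of the 60-day KO females. In males Col3a1 ranged over 675 to 902 CPM in WT and 763 to 1138 in KO at 30 days, and over 219 to 403 in WT and 342 to 447 in KO at 60 days.

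Col5a1 and Col5a2 encode the chains of type V collagen, which is built into type I fibrils and governs their diameter. Col5a2 stood at 53.8, 56.9, 43.4 and 49.9 CPM in 30-day WT and 33.7, 35.5, 32.8 and 26.6 in KO females, with all KO values below all WT values. It fell in KO (log2 fold change -0.66 ± 0.13 (SE), edgeR adjusted p = 0.0260), but only the fits without WT replicate 3 or 4 kept the call, and without any of the other 6 libraries the adjusted p was 0.0593 to 0.102. At 60 days it stood at 17.9, 13.3, 19.4 and 14.1 in WT and 22, 17.7, 21.8 and 20.9 in KO, overlapping, and the interaction was 1.01 ± 0.20 (edgeR adjusted p = 0.00505). In males Col5a2 ranged over 35.1 to 46.1 and 37.7 to 50.9 CPM in WT and KO at 30 days and over 12.1 to 19.6 in WT and 17.0 to 23.6 in KO at 60 days.

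Col5a1 showed the same order as its partner. It stood at 98.8, 105, 81.3 and 91.3 CPM in 30-day WT and 66.6, 70.5, 70.3 and 61.1 in KO females, without overlap, a difference that was not called (log2 fold change -0.49 ± 0.12 (SE), edgeR adjusted p = 0.0741). Its levels at 60 days were 28.6, 25.9, 29.6 and 27.9 in WT and 38.2, 33.8, 34.3 and 31.9 in KO, now with KO above WT in all animals and again not called (edgeR adjusted p = 0.155). Its interaction was called (log2 fold change 0.79 ± 0.17 (SE), edgeR adjusted p = 0.0123). All 4 tested fibrillar collagens fell with age in all 4 comparisons.

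**Figure D3:**
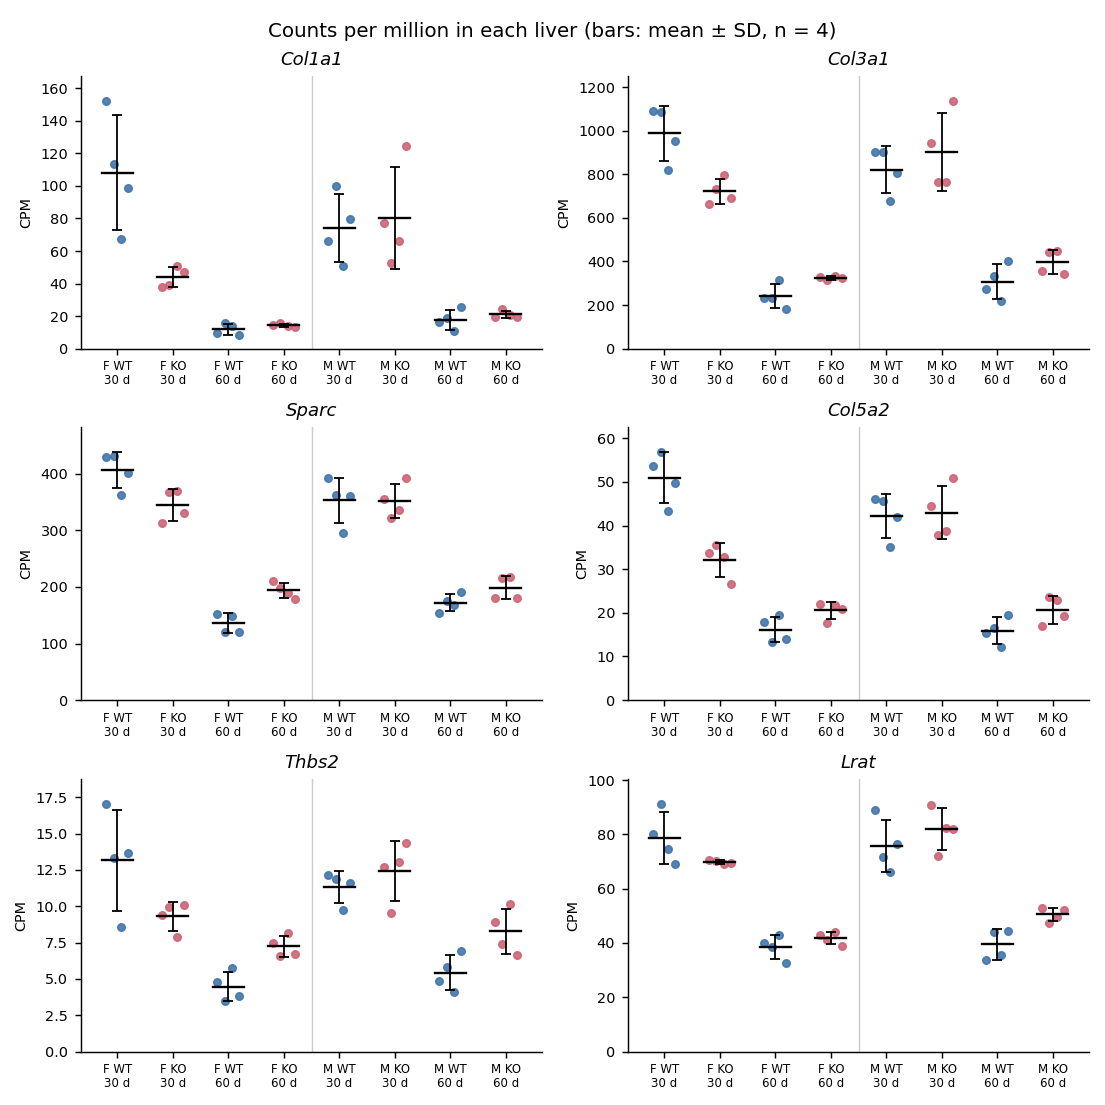
CPM of 6 genes in each of 32 livers (points; blue WT, red KO; females left and males right of the grey line) with the group mean and SD. Col1a1 and Col5a2 show KO females below WT females at 30 days, and Sparc shows KO females above WT at 60 days (179 to 209.9 against 120 to 153 CPM). The group means of all 6 genes are lower at 60 than at 30 days, but Thbs2 overlaps between the ages in KO females and was not called there.

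Of the network, beaded and fibril-associated collagens, Col6a2 encodes a chain of the beaded filaments of type VI collagen. It stood at 103, 107, 77.6 and 82.4 CPM in 30-day WT and 59.0, 62.4, 62.9 and 58.1 in KO females, without overlap. It fell in KO (log2 fold change -0.61 ± 0.14 (SE), edgeR adjusted p = 0.0460), a call that was kept only without WT replicate 3 or 4 and was otherwise lost (adjusted p 0.0959 to 0.203). At 60 days it stood at 27.6, 32.4, 36.7 and 28.5 in WT and 34, 40.8, 36.6 and 31.6 in KO, overlapping. The interaction was called (log2 fold change 0.80 ± 0.20 (SE), edgeR adjusted p = 0.0241) and was lost without replicate 1 or 2 of the 30-day WT or replicate 4 of the 60-day WT females (0.0551 to 0.0595).

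Col14a1 encodes a collagen that decorates the surface of fibrils. It stood at 53.6, 55.3, 56.1 and 34.2 CPM in 60-day WT and 72.6, 92.1, 73.4 and 72.4 in KO females, and all KO values lay above all WT values. It rose in KO (log2 fold change 0.64 ± 0.16 (SE), edgeR adjusted p = 0.0118), a call lost without WT replicate 4, the lowest library (adjusted p = 0.0591). At 30 days it stood at 125, 138, 98.3 and 108 in WT and 93.8, 112, 102 and 91.3 in KO, overlapping. The interaction was 0.87 ± 0.22 (edgeR adjusted p = 0.0247) and was lost without replicate 1 or 2 of the 30-day WT, 1 or 4 of the 30-day KO or 4 of the 60-day WT females (0.0513 to 0.0612). In 60-day males it stood at 48.7, 50.3, 37.3 and 73.2 in WT and 73.8, 83.3, 84.3 and 65.9 in KO, where it was not called (log2 fold change 0.56 ± 0.16 (SE), edgeR adjusted p = 0.153).

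Col4a1, a chain of basement membrane collagen, stood at 242, 207, 158 and 179 CPM in 30-day WT and 148, 148, 137 and 141 in KO females, without overlap, and was not called (edgeR adjusted p = 0.227). It fell with age in all 4 comparisons, by 1.08 to 1.69 on the log2 scale.

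Among the glycoproteins and proteoglycans, Sparc (osteonectin), which binds collagen and calcium and is made by stellate and endothelial cells, gave the steadiest genotype difference. Sparc at 60 days stood at 153, 121, 149 and 120.4 CPM in WT and 209.9, 198, 189 and 179 in KO females, with every KO value above every WT value. It rose in KO (log2 fold change 0.51 ± 0.10 (SE), edgeR adjusted p = 0.00173), and it was called in all 5 alternative fits and in all 8 fits without 1 library, with an adjusted p of at most 0.0151. At 30 days it stood at 429, 432, 363 and 401 in WT and 312, 368, 369.9 and 331 in KO, overlapping and with the KO mean lower (log2 fold change -0.23 ± 0.10 (SE), edgeR adjusted p = 0.360). The interaction was 0.75 ± 0.14 (edgeR adjusted p = 0.00338). In males it stood at 392, 362, 296 and 361 CPM in WT and 355, 323, 336 and 392 in KO at 30 days, and at 154, 175, 169 and 191 in WT and 181, 216, 218 and 181 in KO at 60 days, with no call between genotypes.

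Thbs2 encodes thrombospondin 2, a matricellular protein that acts on collagen fibrils and on cell adhesion. Thbs2 at 60 days stood at 4.80, 3.5, 5.73 and 3.84 CPM in WT and 7.5, 6.58, 8.18 and 6.69 in KO females, without overlap. It rose in KO (log2 fold change 0.69 ± 0.19 (SE), edgeR adjusted p = 0.0282), a call lost without WT replicate 2 or 4 or KO replicate 1 or 3 (adjusted p 0.0689 to 0.112). At 30 days it stood at 17.1, 13.3, 8.61 and 13.7 in WT and 9.40, 9.92, 7.89 and 10.1 in KO, overlapping, and the interaction was 1.19 ± 0.26 (edgeR adjusted p = 0.0111). In 60-day males it stood at 4.84, 5.79, 4.13 and 6.91 in WT and 8.92, 7.39, 10.1 and 6.63 in KO, not called (log2 fold change 0.62 ± 0.19 (SE), edgeR adjusted p = 0.189).

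Thbs1 encodes thrombospondin 1, which can activate latent TGF-beta, and it went the other way with age. In KO females it stood at 10.4, 5.75, 11.5 and 9.97 CPM at 30 days and 32, 23.5, 22.1 and 22.2 at 60 days, without overlap. It was the only one of the 34 genes that rose with age, and only there (log2 fold change 1.40 ± 0.35 (SE), edgeR adjusted p = 0.0038; 1.26 and 0.0161 without the library with retinal transcripts), while in WT females it stood at 12.4, 11.5, 12.6 and 9.97 at 30 days and 28.8, 9.21, 18.6 and 8.69 at 60 days, overlapping. Its interaction was not called (edgeR adjusted p = 0.335), so a difference between the genotypes in this rise was not shown. Thbs1 was lower in 60-day WT males (8.56, 9.77, 4.39 and 8.97 CPM) than in WT females (log2 fold change -1.04 ± 0.36 (SE), edgeR adjusted p = 0.0338), although both groups overlapped.

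Postn encodes periostin, a matrix protein of growing and healing tissue, and was among the least abundant of these transcripts. In WT females it stood at 1.02, 1.31, 0.200 and 1.05 CPM at 30 days, and in WT males at 0.577, 0.846, 0.572 and 0.731, while all 8 WT libraries at 60 days held 0 reads. Against 3 reads over a group, that was at least 16.7-fold lower at 60 days in females and at least 13.4-fold lower in males. In KO females it stood at 0.312, 0.336, 0.196 and 0.108 CPM at 30 days and 0.150, 0.0645, 0.123 and 0 at 60 days (19 and 5 reads in all), and in KO males at 0.758, 0.471, 0.853 and 0.683 at 30 days and 0, 0.222, 0 and 0 at 60 days (57 and 3 reads). The fall with age was called in WT females, WT males and KO males and was not called in KO females (edgeR adjusted p = 0.208).

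Lum, Dcn and Bgn encode the small leucine-rich proteoglycans lumican, decorin and biglycan, which bind collagen fibrils. Lum stood at 2.15, 1.96, 2.51 and 2.72 CPM in 30-day WT males and 0.464, 0.311, 0.890 and 0.658 at 60 days, without overlap (log2 fold change -2.0 ± 0.47 (SE), edgeR adjusted p = 0.0016). In 30-day KO males it stood at 0.921, 0.565, 1.35 and 0.830 CPM, below every WT male, and that difference was not called (edgeR adjusted p = 0.452); 3.49% of all genes lay lower without overlap there. Dcn showed the same order in 30-day males (8.67 to 13.1 CPM in WT and 6.06 to 7.80 in KO, edgeR adjusted p = 0.636). Bgn was the gene called between the sexes at 30 days, at 266, 272, 223 and 264 CPM in WT females and 181, 171, 139 and 177 in WT males, without overlap (log2 fold change -0.62 ± 0.13 (SE), edgeR adjusted p = 0.00593).

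Reln encodes reelin, a secreted glycoprotein that quiescent and activated stellate cells make. It stood at 98.6, 105, 75.2 and 79.4 CPM in 30-day WT and 79.9, 78.1, 77.3 and 68.9 in KO females, and at 57.7, 54.6, 62.1 and 44.4 in WT and 64.7, 70.4, 71.6 and 57.2 in KO at 60 days, and it overlapped at both ages. It fell with age in WT females (-0.71 ± 0.16 on the log2 scale), WT males (-0.78 ± 0.16) and KO males (-0.71 ± 0.16), and was not called in KO females (log2 fold change -0.20 ± 0.16 (SE), edgeR adjusted p = 0.399).

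Among the genes of elastic fibres the fall with age was steep in Eln, which encodes tropoelastin, the soluble precursor of elastin. Eln stood at 118, 127, 118 and 69.3 CPM in 30-day WT females and 8.66, 16.5, 11.0 and 13.2 at 60 days, with a gap between all values of the 2 ages. Its log2 fold changes with age were -3.12 ± 0.19 in WT females, -2.77 ± 0.19 in KO females, -3.24 ± 0.20 in WT males and -2.91 ± 0.19 in KO males (edgeR adjusted p at most 4.07e-11). In KO females it stood at 65.4, 70.7, 68.0 and 66.0 CPM at 30 days, overlapping with WT only through WT replicate 4, and was not called against WT (edgeR adjusted p = 0.0930). Unlike Col1a1, it showed no called interaction (log2 fold change 0.35 ± 0.26 (SE), edgeR adjusted p = 0.533).

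Fbn1 encodes fibrillin 1, the scaffold of microfibrils. It stood at 62.7, 57.1, 44.3 and 48.4 CPM in 30-day WT and 38.7, 38.5, 34 and 34.5 in KO females, with KO below WT throughout, and at 12.4, 12.7, 14.3 and 8.99 in WT and 19.3, 16.0, 18.1 and 15.0 in KO at 60 days, with KO above WT throughout. Neither difference was called alone (edgeR adjusted p = 0.127 and 0.0708), and their difference was (log2 fold change 1.03 ± 0.22 (SE), edgeR adjusted p = 0.0108). In males Fbn1 ranged over 35.4 to 53.1 and 44.2 to 56.7 CPM in WT and KO at 30 days and over 9.09 to 17.9 in WT and 15.0 to 20.4 in KO at 60 days, overlapping at both.

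Fbln5 encodes fibulin 5, which helps tropoelastin to assemble on microfibrils. It stood at 15.3, 16.1, 14.0 and 16.4 CPM in 30-day WT and 8.42, 8.15, 10.2 and 10.2 in KO females, without overlap, and at 5.67, 3.83, 6.71 and 3.07 in WT and 9.90, 7.87, 5.04 and 6.55 in KO at 60 days, overlapping. Its interaction was called (log2 fold change 1.33 ± 0.30 (SE), edgeR adjusted p = 0.0137). Fbln1, a fibulin of elastic fibres and basement membranes, stood at 2.55, 3.45, 1.57 and 1.40 CPM in 30-day KO females and 0.600, 0.903, 1.6 and 0.535 at 60 days, and in KO males at 6.39, 3.67, 3.41 and 4.20 at 30 days and 1.58, 1.26, 1.68 and 1.56 at 60 days. It fell with age in all 4 comparisons, by 1.21 to 1.53 on the log2 scale.

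The cross-linking enzymes Lox (lysyl oxidase) and Loxl1 oxidise lysines in collagen and elastin. Lox stood at 4.78, 4.82, 2.95 and 2.68 CPM in 30-day WT females and 0.945, 0.336, 0.716 and 0.461 at 60 days, without overlap (log2 fold change -2.63 ± 0.44 (SE), edgeR adjusted p = 3.01e-05), and at 1.77, 1.15, 2.21 and 1.83 in 30-day KO females, below every WT value and not called (edgeR adjusted p = 0.227). In KO females the fall of Lox with age was called only without the library with retinal transcripts (log2 fold change -0.95 and edgeR adjusted p = 0.121 with it, -1.42 and 0.0330 without). Loxl1 ranged over 4.83 to 6.88 CPM in 30-day WT and 2.64 to 3.23 in KO females, also without overlap and not called (edgeR adjusted p = 0.0688).

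The genes of matrix turnover did not move as one. Timp3, an inhibitor of metalloproteases that stays bound to the matrix, stood at 7.64, 17.5, 13.2 and 13.0 CPM in 60-day WT and 7.42, 5.09, 8.18 and 5.28 in KO females, overlapping through WT replicate 1. It fell in KO (log2 fold change -0.99 ± 0.28 (SE), edgeR adjusted p = 0.0302), a call kept only without WT replicate 1 or KO replicate 3 and lost without any of the other 6 libraries (adjusted p 0.0545 to 0.127). At 30 days it stood at 9.03, 6.44, 6.81 and 11.7 in WT and 4.68, 5.66, 3.28 and 3.61 in KO, with KO below WT in all animals and no call (edgeR adjusted p = 0.158). Unlike the collagens it had an interaction near 0 (-0.01 ± 0.41 on the log2 scale). Timp3 was also lower in 60-day WT males (4.71, 6.22, 6.17 and 13.6 CPM) than in WT females (log2 fold change -0.76 ± 0.28 (SE), edgeR adjusted p = 0.0401), with overlap.

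Timp1, the inhibitor that is induced in activated stellate cells, stood at 6.25, 4.76, 3.75 and 3.41 CPM in 30-day WT and 3.22, 2.30, 2.94 and 3.77 in KO females, and at 1.97, 2.35, 2.02 and 2.15 in WT and 2.02, 2.19, 1.66 and 1.81 in KO at 60 days. It overlapped between genotypes at both ages, was not called, and fell with age in all 4 comparisons. Mmp2, the gelatinase A of mesenchymal cells, stood at 26.3, 27.0, 21.4 and 23.3 CPM in 30-day WT and 15.5, 19.8, 16.9 and 13.8 in KO females, without overlap and not called (edgeR adjusted p = 0.142). Mmp2 was higher in 60-day KO males (11.8, 12.1, 12.9 and 10.6 CPM) than in KO females (7.5, 10.2, 7.63 and 6.55; log2 fold change 0.57 ± 0.18 (SE), edgeR adjusted p = 0.0231), without overlap. Without the library with retinal transcripts that call was lost (adjusted p = 0.0601).

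Mmp14, the membrane protease that activates pro-Mmp2, was not called with age or genotype. It was lower in males at 60 days, at 111, 124, 121 and 126 CPM in WT females and 80.7, 77.9, 78.2 and 66.0 in WT males, without overlap (log2 fold change -0.67 ± 0.12 (SE), edgeR adjusted p = 0.000103), and the same was called in KO (log2 -0.48 ± 0.12). Timp2 ranged over 14.8 to 19.4 CPM in 30-day WT and 10.9 to 16.3 in KO females, overlapping, and its only call was a fall with age in WT males (log2 fold change -0.54 ± 0.18).

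Of the genes that mark the cells themselves, Lrat, the enzyme that stores retinol as ester in quiescent stellate cells, differed little between genotypes in females. It stood at 80.3, 91.4, 74.5 and 69.0 CPM in 30-day WT and 70.7, 70.2, 69.2 and 69.5 in KO females, overlapping (log2 fold change -0.17 ± 0.10 (SE), edgeR adjusted p = 0.542), and at 39.9, 38.5, 43.1 and 32.7 in WT and 42.8, 41.1, 44.2 and 39.0 in KO at 60 days. It fell with age in all 4 comparisons, by 0.70 to 1.03 on the log2 scale. In 60-day males it stood at 33.7, 44.1, 35.7 and 44.5 in WT and 52.8, 47.4, 49.6 and 52.2 in KO, the only gene of the 34 without overlap there, against 2.21% of all genes, and it was not called (edgeR adjusted p = 0.154).

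Igfbp6, which binds insulin-like growth factor II, showed the largest called genotype difference. It stood at 12.9, 12.6, 4.80 and 5.30 CPM in 30-day WT and 1.14, 0.719, 2.94 and 2.59 in KO females, and all KO values lay below all WT values. It fell in KO (log2 fold change -2.27 ± 0.51 (SE), edgeR adjusted p = 0.0462), a call kept only without WT replicate 3 or 4 and otherwise lost (adjusted p 0.0593 to 0.205). WT replicates 1 and 2 were the highest, and the same 2 libraries were the highest in Msln given above, whose part was not tested. Among the 30-day WT females, Col1a1, Col5a2 and Col6a2 were also highest in these 2 libraries, and the part of Msln there was not tested either. At 60 days Igfbp6 stood at 1.65, 1.48, 1.43 and 0.461 in WT and 1.87, 1.35, 1.54 and 1.07 in KO, and in 30-day males at 1.73, 5.23, 4.66 and 2.14 in WT and 2.06, 0.989, 1.26 and 7.27 in KO, overlapping in both.

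Des, Acta2 and Tagln encode desmin, smooth muscle actin and transgelin of contractile cells. Des stood at 6.98, 5.18, 4.05 and 4.78 CPM in 30-day WT and 3.22, 3.45, 3.72 and 3.13 in KO females, without overlap, and at 1.97, 2.29, 2.54 and 1.92 in WT and 2.85, 2.45, 3.26 and 2.87 in KO at 60 days, overlapping. Its interaction was called (log2 fold change 1.02 ± 0.28 (SE), edgeR adjusted p = 0.0408) and was lost in 12 of 16 fits without 1 library (adjusted p 0.0501 to 0.110); the 4 that kept it left out replicate 3 or 4 of the 30-day WT, replicate 3 of the 60-day WT or replicate 2 of the 60-day KO females. Acta2, the marker of activated stellate cells and of vessel walls, stood at 18.2, 6.44, 7.86 and 5.14 CPM in 30-day WT and 5.30, 4.75, 5.39 and 5.61 in KO females, where WT replicate 1 was far above the rest and the groups overlapped (log2 fold change -0.84 ± 0.31 (SE), edgeR adjusted p = 0.288). At 60 days it stood at 2.44, 2.22, 3.78 and 1.46 in WT and 4.05, 3.55, 3.32 and 4.01 in KO, overlapping (log2 fold change 0.58 ± 0.36 (SE), edgeR adjusted p = 0.383). Tagln was also highest in WT replicate 1 of the 30-day females, over 8.95 to 23.8 CPM in WT and 6.95 to 10.1 in KO.

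The PDGF receptors Pdgfra and Pdgfrb receive the main growth signals of mesenchymal cells. Pdgfrb stood at 37.3, 35.4, 22.6 and 36.3 CPM in 60-day WT females and 47.1, 56.0, 46.0 and 35.5 in WT males, overlapping, and was higher in males (log2 fold change 0.49 ± 0.13 (SE), edgeR adjusted p = 0.00589), as it was in KO (log2 0.46 ± 0.13; 34.9, 39.1, 34.9 and 32 CPM in females and 46.9, 42.7, 58.3 and 45.6 in males, without overlap). At 30 days it ranged over 54.3 to 58.9 CPM in WT and 41.9 to 47.7 in KO females, without overlap and not called (edgeR adjusted p = 0.332). Pdgfra fell with age in all 4 comparisons, a call lost in KO females without the library with retinal transcripts (edgeR adjusted p = 0.0594). The intermediate filament gene Vim fell in all 4 with and without it.

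**Figure D4:**
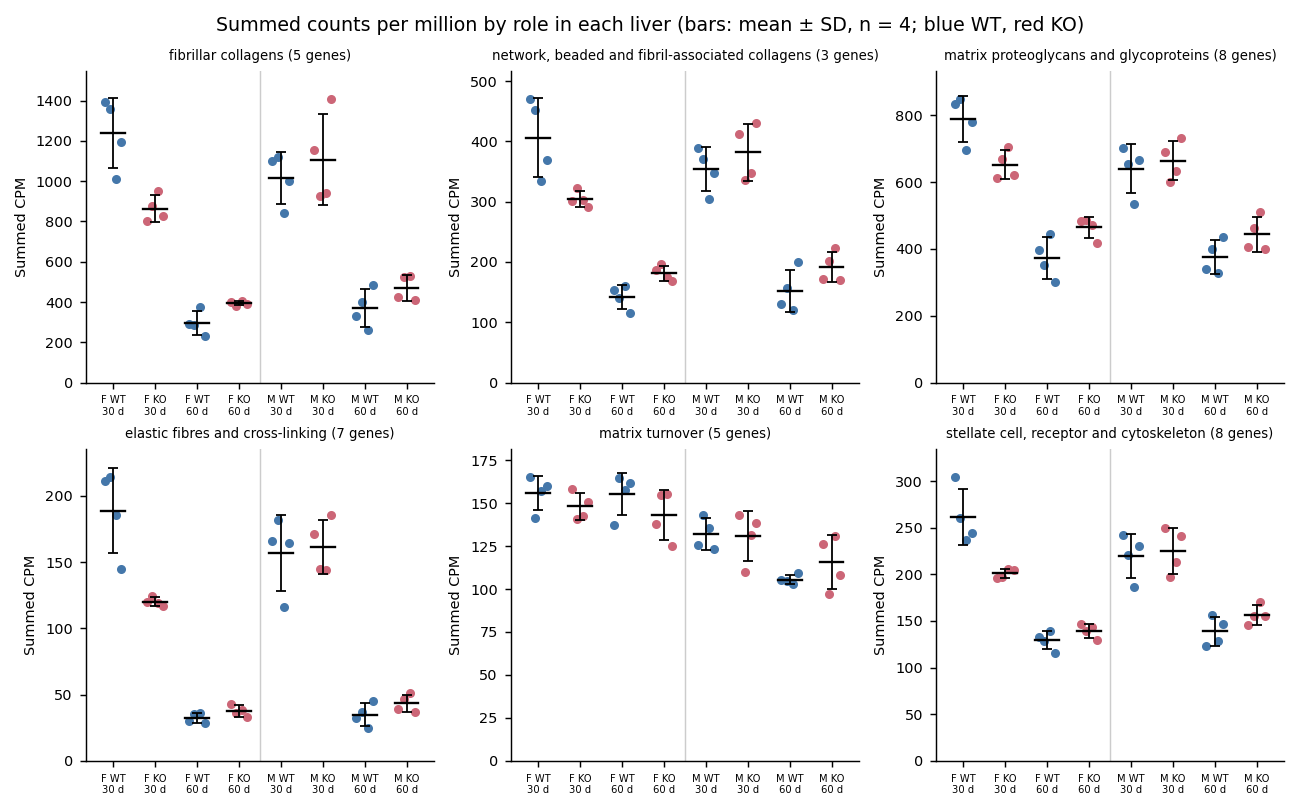
Summed CPM of the genes of each role in each of 32 livers (points; blue WT, red KO; females left and males right of the grey line), with mean and SD. In 5 of the 6 panels the 60-day groups lie below the 30-day groups, and the genes of matrix turnover overlap across age.

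Summed by role, the fibrillar collagens came to 1013 to 1394 CPM in 30-day WT females and 802 to 949.9 in KO, and to 231 to 377 and 379.8 to 403 at 60 days. KO thus lay below WT in every animal at 30 days and above it in every animal at 60 days. The stellate cell, receptor and cytoskeleton genes came to 237 to 304 CPM in WT and 196 to 206 in KO at 30 days, without overlap, and to 116 to 139 and 129.5 to 147 at 60 days, with overlap. The genes of matrix turnover, whose sum is mostly Mmp14, came to 142 to 165 and 141 to 158 CPM at 30 days and overlapped at both ages. These sums weight abundant genes most and carry no test.

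Between the sexes at 30 days 1 of 34 was called in WT (Bgn, lower in males), against 2.07% of all genes, and none in KO by edgeR, against 2.24%. In 30-day KO animals 18 of 34 and 13.2% of all genes had an unadjusted p under 0.05, limma called 0, DESeq2 called Col1a1 and Fbln1, a fit of the 30-day libraries alone called Fbn1 and Fbln5, and edgeR without KO female replicate 2 called Fbln1. At 60 days 2 were higher in WT males (Sparc and Pdgfrb) and 4 lower (Mmp14, Pdgfra, Thbs1 and Timp3), against 26.4% of all genes called. Sparc, Mmp14 and Pdgfrb alone were called when the 60-day libraries were fitted alone or without WT male replicate 1. In 60-day KO animals Mmp2 and Pdgfrb were higher and Mmp14 lower in males, against 18.5% of all genes, and without the library with retinal transcripts Pdgfrb and Mmp14 were called. The share of these genes called at 60 days stood below that background in both genotypes.

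Genes that act beside these in collagen making and signalling were read from further lists. Of 20 tested collagen biosynthesis enzymes and chaperones, 9 fell with age in WT females and 3 rose, where 17.1% and 16% of all genes did. In KO females 6 fell and none rose (5 and none without the library with retinal transcripts), where 12.1% and 10.6% of all genes did. The steepest fall in WT females was in Loxl2, a lysyl oxidase (log2 fold change -2.53 ± 0.18 (SE), edgeR adjusted p = 1.68e-11), with Adamts2, which trims the procollagen end, at -2.16 ± 0.21 and Serpinh1, the collagen chaperone, at -1.29 ± 0.13. Between genotypes 3 fell in 60-day KO females (P3h1, Plod1 and Loxl4), where 3.29% of all genes did, and none was called in the other 3 comparisons. Without the library with retinal transcripts P3h1 alone was called (log2 fold change -0.33, edgeR adjusted p = 0.0240). Of 11 other collagens tested, 6 fell with age in WT females and 3 in KO females (4 without that library), and none rose. In 60-day KO females 3 of the 11 rose, where 3.48% of all genes did: Col27a1 stood at 7.25, 9.68, 10.0 and 9.69 CPM in WT and 19.4, 16.4, 24.4 and 20.8 in KO, without overlap (log2 fold change 1.14 ± 0.23 (SE), edgeR adjusted p = 0.00277), Col5a3 had a log2 fold change of 1.19 ± 0.35, and Col11a1 was at 1.5, 0.129, 0.184 and 0.334 CPM in KO, highest in the library with retinal transcripts. The same 3 were called in the female interaction of age and genotype. Without that library Col27a1 alone was called in both (edgeR adjusted p = 0.00745 and 0.0129).

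Of 20 tested genes of TGF-beta signalling, 1 rose in 60-day KO females, a share near the 3.48% of all genes that rose, and none was called in the other genotype comparisons. This was Ltbp2, a latent TGF-beta binding protein of elastic fibres, at 1.42, 1.34, 1.56 and 0.846 CPM in WT and 3.22, 2.64, 3.32 and 3.14 in KO, without overlap (log2 fold change 1.24 ± 0.29 (SE), edgeR adjusted p = 0.00835). With age, 8 of the 20 fell and 1 rose in WT females, 4 fell and 2 rose in KO females (3 and 1 without the library with retinal transcripts), 6 fell and 1 rose in WT males, and 8 fell and 2 rose in KO males. Of all genes 17.1% fell and 16% rose in WT females, 12.1% and 10.6% in KO females, 15.8% and 15.7% in WT males, and 14.5% and 14% in KO males. Of 14 PDGF ligands and matrix receptors, 2 rose in 60-day KO females: Pdgfa, a PDGF ligand, at 2.84, 1.68, 1.37 and 1.08 CPM in WT and 3.00, 3.80, 2.95 and 3.01 in KO (log2 fold change 0.88 ± 0.24 (SE), edgeR adjusted p = 0.0237), and Sdc1, the heparan sulfate proteoglycan syndecan 1 (log2 fold change 0.47 ± 0.12). Ltbp2, Pdgfa and Sdc1 were also called without the library with retinal transcripts (edgeR adjusted p = 0.0245, 0.0421 and 0.0247). Of 17 other stellate cell genes, 1 rose (Ntm, highest in the library with retinal transcripts) and 1 fell (Vipr1) in 60-day KO females, neither without that library, and none was called in the other genotype comparisons. With age 6 of the 17 fell and 2 rose in WT females, 6 fell and 3 rose in KO females (5 and 2 without that library), 4 fell and 1 rose in WT males, and 3 fell and 2 rose in KO males. Their summed level was 1066 to 1325 CPM in 30-day and 1265 to 1488 in 60-day WT females, which overlapped.

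Whether partner genes varied together from animal to animal was tested in 6 pairs, after the mean of each group was taken from the log2 CPM of all 32 libraries, with animals permuted within groups. Col1a1 and Col3a1 were correlated at r = 0.829 and rho = 0.786 (permutation p = 1e-05 and 2e-05, adjusted over the 6 pairs 6e-05 for both), where 1e-05 is the smallest p that the permutations can give. Col5a1 and Col5a2 were correlated at r = 0.748 and rho = 0.753 (permutation adjusted p = 6e-05 and 8e-05). Acta2 and Tagln were correlated at r = 0.753 and rho = 0.796 (permutation adjusted p = 0.00014 and 6e-05). Lrat and Reln were correlated at r = 0.743 and rho = 0.754 (permutation adjusted p = 0.00024 and 0.000405).

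In the remaining pairs r and rho were lower, and no test compared the pairs with each other. Col1a1 and Acta2 were correlated at r = 0.554 and rho = 0.508 (permutation p = 0.0108 and 0.00979, adjusted 0.0129 and 0.0117). Col1a1 and Lrat were correlated at r = 0.443 and rho = 0.336 (permutation p = 0.0654 and 0.131), which did not pass. Without the 2 libraries farthest from the median of the first gene, r was 0.777, 0.656, 0.695, 0.734, 0.628 and 0.44 in the order Col1a1 with Col3a1, Col5a1 with Col5a2, Acta2 with Tagln, Lrat with Reln, Col1a1 with Acta2 and Col1a1 with Lrat. Within the 16 libraries of 30 days and the 16 of 60 days the first pair gave 0.873 and 0.837, the second 0.773 and 0.739, the third 0.698 and 0.814, the fourth 0.848 and 0.719, the fifth 0.54 and 0.574 and the last 0.324 and 0.595.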

How the data were processed

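Livers of 32 rats, 8 groups of 4 by sex, genotype and age, were measured by stranded mRNA sequencing (Trizol extraction, NEBNext Ultra II kit, per the labels' protocols). The authors deposited whole-number read counts for 17327 genes and log2 CPM (counts scaled to library size) for 11344 genes. The build Rnor_5.0 and the tools STAR, Cufflinks and limma are named, per the submitters' processing notes; their versions, the annotation and the strand setting were not stated. The deposited log2 values equalled log2 CPM computed from (count + 0.5) and (total + 1) to within 5e-09 over 11340 genes compared, with no scaling between libraries.

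Entries without a gene (no feature, 18.0% to 21.2% of all counted reads with these entries included, and ambiguous, 0.262% to 0.648%) were left out. Counts were fitted with edgeR 4.0.16 (R 4.3.3): genes passing filterByExpr with a minimum count of 10, TMM scaling, 8 group means over 32 libraries with 24 residual degrees of freedom, robust quasi-likelihood tests of 16 contrasts, and Benjamini-Hochberg adjustment over all 11002 genes tested, with calls at 0.05. The method was tested on simulated data. CPM values are TMM-scaled. Replicates are numbered in accession order, and the labels do not say whether libraries of a group share a litter, so p-values measure the spread between these libraries. The 48 pairs of libraries within groups were compared, and none was identical (chi-square per degree of freedom 11.1 to 58.6). Correlations used 100000 permutations.

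Alternatives were no low-count filter, upper-quartile scaling, DESeq2 1.42.0, limma 3.58.1 on the deposited log2 values, fits to 16 libraries, the number in the 30-day titles as a covariate, and each library left out. The title number was a covariate only in the 30-day genotype comparisons and the 30-day sex by genotype term. Values per library are given for the genes called between genotypes or in an interaction, for the 6 called genes with the largest change in each age comparison and the 4 in each sex comparison, and for a few set by role (among them Col1a1, Col3a1, Acta2, Des, Lrat, Reln, Sparc, Timp1 and Igfbp6). The members and lists were chosen with earlier results of these data known. RefSeq promoters (GRCr8) were matched by symbol.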

Additional observations from a re-analysis of the deposited data

Results flagged for a closer look

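In 21 of 272 groups of 4 libraries (34 genes in 8 groups), 1 library lay far from the other 3 by Dixon's test, where its gap to the nearest exceeded 0.829 of the range. Chance alone gives about 1 in 20.

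Among the females 10 such values arose. Col4a1 was highest in replicate 1 of the 60-day KO females, at 79.4 CPM, where the other 3 libraries stood at 63.8 to 64.9. Col14a1 was lowest in replicate 4 of the 60-day WT females, at 34.2 CPM, where the other 3 libraries stood at 53.6 to 56.1. Col14a1 was highest in replicate 2 of the 60-day KO females, at 92.1 CPM, where the other 3 libraries stood at 72.4 to 73.4. Dcn was highest in replicate 2 of the 60-day WT females, at 10.6 CPM, where the other 3 libraries stood at 4.80 to 5.14. Bgn was lowest in replicate 3 of the 30-day WT females, at 223 CPM, where the other 3 libraries stood at 264 to 272. Bgn was highest in replicate 3 of the 30-day KO females, at 233 CPM, where the other 3 libraries stood at 193 to 197. Thbs1 was highest in replicate 1 of the 60-day KO females, at 32 CPM, where the other 3 libraries stood at 22.1 to 23.5. Eln was lowest in replicate 4 of the 30-day WT females, at 69.3 CPM, where the other 3 libraries stood at 118 to 127. Pdgfrb was highest in replicate 4 of the 30-day WT females, at 58.9 CPM, where the other 3 libraries stood at 54.3 to 54.5. Pdgfrb was lowest in replicate 3 of the 60-day WT females, at 22.6 CPM, where the other 3 libraries stood at 35.4 to 37.3. Replicate 1 of the 60-day KO females is the library with retinal transcripts, and their part in its Col4a1 and Thbs1 values was not tested.

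Among the males 11 such values arose. Postn was highest in replicate 2 of the 60-day KO males, at 0.222 CPM, where the other 3 libraries were at 0. Reln was highest in replicate 3 of the 60-day KO males, at 82.9 CPM, where the other 3 libraries stood at 53.8 to 56.7. Fbln1 was lowest in replicate 2 of the 60-day WT males, at 0.747 CPM, where the other 3 libraries stood at 1.21 to 1.26. Lox was highest in replicate 2 of the 60-day KO males, at 2.44 CPM, where the other 3 libraries stood at 1.11 to 1.26. Timp2 was lowest in replicate 3 of the 30-day WT males, at 11.6 CPM, where the other 3 libraries stood at 16.8 to 17.8. Timp2 was highest in replicate 4 of the 60-day WT males, at 14.4 CPM, where the other 3 libraries stood at 9.34 to 10.0. Timp3 was highest in replicate 4 of the 60-day WT males, at 13.6 CPM, where the other 3 libraries stood at 4.71 to 6.22. Acta2 was lowest in replicate 3 of the 30-day WT males, at 3.21 CPM, where the other 3 libraries stood at 6.97 to 7.46. Acta2 was lowest in replicate 1 of the 60-day KO males, at 1.89 CPM, where the other 3 libraries stood at 3.60 to 3.92. Tagln was highest in replicate 4 of the 60-day WT males, at 8.89 CPM, where the other 3 libraries stood at 4.89 to 5.23. Igfbp6 was highest in replicate 4 of the 30-day KO males, at 7.27 CPM, where the other 3 libraries stood at 0.989 to 2.06. Replicate 4 of the 60-day WT males gave 3 of them.

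The genotype difference of 11 genes in females differed between the ages by the interaction test of edgeR. KO minus WT at 60 days less that at 30 days was 1.55 for Col1a1, 0.89 for Col3a1, 0.79 for Col5a1, 1.01 for Col5a2, 0.80 for Col6a2, 0.87 for Col14a1, 0.75 for Sparc, 1.19 for Thbs2, 1.03 for Fbn1, 1.33 for Fbln5 and 1.02 for Des, all on the log2 scale.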

How the results depend on the processing

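No paired analysis was possible because replicate numbers here follow accession order. Of 83 counts of called genes under alternatives that kept all libraries or split them by age or sex, 73 stayed within 1.5 times of the reported count, and no fold change reversed. The 4 genes called between genotypes in 30-day females became 2 with no low-count filter, 2 with upper-quartile scaling, 9 with DESeq2, 0 with limma on the deposited log2 values and 1 with the title number as a covariate; the 16 libraries of 30 days fitted alone also gave 4, of which only Col5a2 was shared. The 4 called in 60-day females became 1 and the 6 called between WT males and females at 60 days became 3 when the 60-day libraries were fitted alone. DESeq2 called 1 gene between genotypes in 60-day males and 2 between KO males and females at 30 days, where the 30-day libraries fitted alone also gave 2. The cause of these changes was not tested.

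With each library left out in turn, the counts ranged from 0 to 5 (30-day females, KO against WT), 1 to 4 (60-day females), 0 to 1 (60-day males), 0 to 1 (30-day KO, males against females), 3 to 7 (60-day WT, males against females) and 6 to 13 (age by genotype in females). Depth limits the least abundant genes: at 3 reads a library reaches up to 0.247 CPM, and Postn, Lum, Lox and Fbln1 had values near or under 1 CPM at 60 days.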
